A study of Mus musculus with 14 samples.

Results

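Serpins are a large family of proteins, and the probe sets of 8 family members (Serpina3n, Serpina3g, Serpinb6a, Serpinb9, Serpine2, Serpinf1, Serpinh1 and Serpini1) were followed over age in sorted mouse muscle precursor cells. All probe sets that the platform annotation assigns to these 8 genes were taken. This gave 11 of the 45101 probe sets on the array, and they covered 6 of the 8 genes (the annotation names 18193 genes in all). No probe set carried the name of Serpina3g or Serpine2 in the annotation used, so these genes were not analysed here. Of the 11 probe sets, 9 passed the filter on dim signal, which asked for a value above the 40th percentile of its own array on at least 4 of the 14 arrays. Each of those 9 exceeded its array's 40th percentile in all 14 cases. Serpina3n was chosen by its mean, highest at 12 months in these same values, so its 12-month peak is described and not tested.

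The arrays held RNA of cells freed from myofibres of C57BL/6 mice and sorted as CD45-Ter119-Sca-1-CD29+Cxcr4+, a gate used for skeletal muscle precursor (satellite) cells. There were 5 arrays from young mice of 2 months, 4 from middle-aged mice of 12 months and 5 from aged mice of 24 months, and the labels name no treatment or genetic change in any group. The labels do not say whether the arrays of a group came from separate or pooled animals, so the p-values measure the spread between these arrays, which may be partly technical. Values are log2 of the RMA intensity that the authors deposited, and 1 unit is a doubling. A level cannot be compared between probe sets, because each has its own probe affinity.

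An inhibitory serpin presents an exposed loop to a protease, is cut, and folds around the enzyme so that both are trapped. Some members lost this activity and work as hormone carriers, chaperones or signalling proteins. Serpina3n is a secreted acute-phase serpin that inhibits granzyme B and leukocyte elastase, and IL-6-type cytokines and glucocorticoids are known inducers of it. Serpinf1, also called pigment epithelium-derived factor, is secreted, does not inhibit proteases, and is known for restraining vessel growth. In muscle, extracellular proteases and their inhibitors act on the matrix around the satellite cell niche.

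The 250 bases before the RefSeq gene start (GRCm38.p6) are printed for the 2 genes whose probe sets rose, Serpina3n and Serpinf1, and for Serpinh1, whose probe sets passed no test. Capitals mark matches, on either strand, to any of 7 motifs. TTCNNNGAA is the motif of STAT factors, TGANTCA that of AP-1, and TTGCNNAA that of C/EBP factors. The glucocorticoid receptor palindrome was searched as GNACA and, after any 3 bases, the second half-site TGTNC. Of the general promoter motifs, TATAAA stands for the TATA box, CCAAT for the element bound by the factor NF-Y, and GGGCGG for the GC box. The Serpina3n window is chr12:104406458-104406707 on the plus strand, the Serpinf1 window is chr11:75422624-75422873 on the minus strand, and the Serpinh1 window is chr7:99353240-99353489 on the minus strand.
Serpina3n: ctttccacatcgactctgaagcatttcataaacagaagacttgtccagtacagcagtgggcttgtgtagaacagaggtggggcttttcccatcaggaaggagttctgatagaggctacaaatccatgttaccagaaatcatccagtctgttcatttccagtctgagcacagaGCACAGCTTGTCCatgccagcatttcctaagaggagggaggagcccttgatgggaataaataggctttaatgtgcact
Serpinf1: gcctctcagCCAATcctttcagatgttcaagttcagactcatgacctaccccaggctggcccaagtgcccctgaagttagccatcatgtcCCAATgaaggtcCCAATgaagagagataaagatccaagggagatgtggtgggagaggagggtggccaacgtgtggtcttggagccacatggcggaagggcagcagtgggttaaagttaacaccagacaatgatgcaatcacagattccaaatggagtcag
Serpinh1: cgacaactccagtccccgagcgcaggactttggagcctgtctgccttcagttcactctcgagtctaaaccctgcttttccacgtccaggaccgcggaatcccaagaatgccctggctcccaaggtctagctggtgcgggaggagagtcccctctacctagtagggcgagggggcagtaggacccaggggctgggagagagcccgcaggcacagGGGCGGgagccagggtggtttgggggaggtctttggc
The Serpina3n window held 1 match, GCACAGCTTGTCC to the glucocorticoid receptor palindrome, starting 78 bases before the gene start. Such a match was found in 127 of 32851 windows of the same length in the RefSeq table (0.387%). The Serpinf1 window held 3 CCAAT matches, a motif present in 33.8% of windows, and the Serpinh1 window held 1 GC box, present in 32.7%. No match to the STAT letters, present in 7.02% of windows, was found in these 3 windows. The AP-1 letters (6.75%), the C/EBP letters (9.56%) and TATAAA (12.4%) were not found in them either. These matches describe letters, and binding was not measured in this series.

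The 14 arrays correlated with each other at 0.936 to 0.984, and no pair was identical. Once each age group's mean was removed, the first principal component took 31.5% of the remaining variance. Its sign split the arrays into a set of 8 (young 1, 3 and 4, middle-aged 2, 3 and 4, aged 1 and 2), called array set 1, and a set of 6 (young 2 and 5, middle-aged 1, aged 3, 4 and 5), called array set 2. The labels name no such split. The signal of control probe sets at the 3' end minus that at the 5' end, a measure of RNA integrity, averaged 4.30 ± 0.54 (SD, n = 5) log2 units in young, 3.85 ± 0.25 (n = 4) in middle-aged and 3.54 ± 0.51 (n = 5) in aged arrays. The aged minus young difference of -0.77 had a two-sided exact permutation p of 0.0714 (0.429 after Benjamini-Hochberg adjustment over 6 comparisons).

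Serpina3n was low in young cells and high in middle-aged and aged cells. Its probe set, 1419100_at (Entrez gene 20716), read 5.88, 5.54, 6.54, 6.31 and 5.74 on young arrays 1 to 5. On middle-aged arrays 1 to 4 it read 9.0, 9.21, 10.21 and 9.39. On aged arrays 1 to 5 it read 9.41, 9.68, 8.53, 9.39 and 7.54. The lowest older array, aged 5, stood above the highest young array. Such a lack of overlap was seen in 2.82% of all tested probe sets for aged above young and in 3.24% for middle-aged above young. The middle-aged and aged arrays overlapped: only middle-aged 3 exceeded every aged array, and aged 3 and aged 5 lay below every middle-aged array. The group means were 6.00 ± 0.41 (SD, n = 5), 9.45 ± 0.53 (n = 4) and 8.91 ± 0.88 (n = 5). The aged group had the widest spread, and aged 5 accounted for its low end.

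As a description, the middle-aged mean was 3.45 ± 0.39 (SE) log2 units above the young mean, or 10.9-fold, which ranked 9th among the rises of 23887 probe sets tested. The mean at 24 months was below that at 12 months by 0.54 ± 0.39, less than the SD of the aged group. That height of the peak over the next age ranked 127th of the 23887. With the array set as a term, the change from 12 to 24 months was smaller, at -0.27 ± 0.32. Within array set 1 it was -0.055 ± 0.31, and within array set 2, with a single middle-aged array, it was -0.51. The step from 12 to 24 months minus the step from 2 to 12 months was -3.99 ± 0.68. The rise before 12 months was thus the large step, and the drop afterwards lay within the spread of the arrays.

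The order of aged and young was not fixed by choosing Serpina3n for a peak at 12 months, and this difference was tested. Aged cells had 2.91 ± 0.36 (SE) log2 units more Serpina3n signal than young cells (95% interval 2.14 to 3.68), or 7.52-fold, with an adjusted p of 0.000604 (limma, Benjamini-Hochberg over 23887 probe sets). It was the 39th largest rise in that comparison. This test uses young and aged arrays that the choice for a 12-month peak also used, so it is not independent of the choice of the gene. Its p describes the difference in these arrays and gives no separate support for the choice. Leaving out each array in turn gave 2.72 to 3.25, with adjusted p from 8.71e-05 to 0.00254. Within array set 1 the difference was 3.30 (adjusted p = 0.00127), and within array set 2, with 2 young and 3 aged arrays, it was 2.85 but no longer passed (adjusted p = 0.164). With the 3' minus 5' measure as a covariate it was 3.13 (adjusted p = 0.00407). In RNA of a whole sorted population, a change in the number of cells that make a transcript and a change in the amount per cell cannot be told apart.

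**Figure D1:**
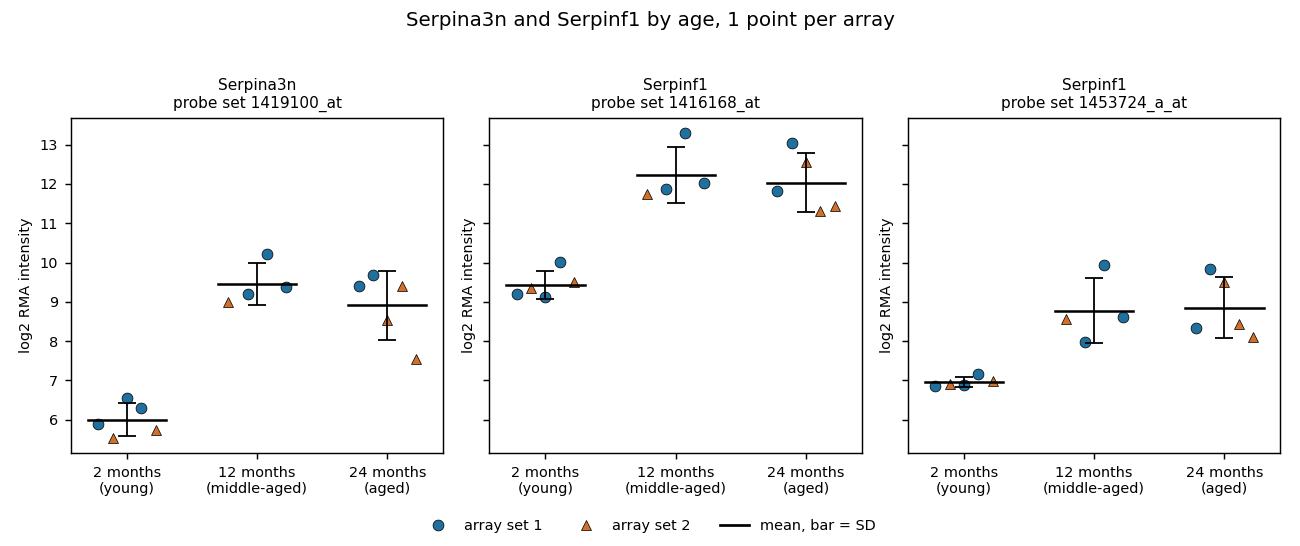
Log2 RMA intensity (vertical axis) of the Serpina3n probe set and both Serpinf1 probe sets at 2, 12 and 24 months (horizontal axis), 1 point per array, with circles for array set 1, triangles for array set 2, horizontal lines for group means and bars for SD. All young arrays lie below all older arrays in each panel, and middle-aged and aged arrays overlap.

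Serpinf1 was also low in young cells and high at both later ages, and both of its probe sets rose. Probe set 1416168_at (Entrez gene 20317) read 9.20, 9.35, 9.12, 10.02 and 9.50 on young arrays 1 to 5. Middle-aged arrays 1 to 4 gave 11.74, 11.88, 13.29 and 12.02. Aged arrays 1 to 5 gave 11.81, 13.04, 12.55, 11.30 and 11.44. No older array came within 1 unit of a young array, and middle-aged 3 was the highest of all. The means were 9.44 ± 0.36 (SD, n = 5), 12.23 ± 0.71 (n = 4) and 12.03 ± 0.75 (n = 5). Aged exceeded young by 2.59 ± 0.35 (SE), 6.02-fold (limma adjusted p = 0.000849), and middle-aged exceeded young by 2.79 ± 0.37, 6.93-fold (limma adjusted p = 0.00149). Between 12 and 24 months the change was -0.20 ± 0.37 (95% interval -0.99 to 0.59, limma adjusted p = 0.901), and no difference between these ages was detectable with these arrays.

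The second Serpinf1 probe set, 1453724_a_at, tracked the first with r = 0.97 over 14 arrays, which share the same RNA. It read 6.85, 6.91, 6.89, 7.17 and 6.99 in young arrays 1 to 5, a spread far narrower than at the later ages. The middle-aged arrays 1 to 4 read 8.55, 7.99, 9.95 and 8.61. The aged arrays 1 to 5 read 8.33, 9.85, 9.51, 8.44 and 8.11. Middle-aged 3 and aged 2 and 3 were again the high arrays. Means were 6.96 ± 0.13 (SD, n = 5), 8.77 ± 0.83 (n = 4) and 8.85 ± 0.78 (n = 5). Aged exceeded young by 1.88 ± 0.36 (SE), 3.69-fold (limma adjusted p = 0.00932), and the change from 12 to 24 months was 0.07 ± 0.38 (limma adjusted p = 0.971).

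The 12-month rise of 1453724_a_at, 1.81 ± 0.38 (SE) or 3.51-fold, passed more narrowly (limma adjusted p = 0.0246). It did not pass without young 1 (adjusted p = 0.0640), young 3 (0.0653), young 5 (0.0520), middle-aged 3 (0.0857, difference 1.42) or middle-aged 4 (0.0657), although the direction was the same. The 12-month rise of 1416168_at passed whichever array was left out (2.44 to 2.96, adjusted p from 0.000889 to 0.00655).

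Within array set 1, 1416168_at was higher by 2.98 in aged (adjusted p = 0.0115) and 2.95 in middle-aged cells (adjusted p = 0.00774) than in young cells. Within array set 2 the same differences were 2.34 (adjusted p = 0.150) and 2.31 (adjusted p = 0.523), with a single middle-aged array. For 1453724_a_at, no difference passed within either set. Aged against young was 2.12 (adjusted p = 0.0634) in set 1 and 1.73 (adjusted p = 0.248) in set 2. Middle-aged against young was 1.88 (adjusted p = 0.0567) in set 1 and 1.60 (adjusted p = 0.803) in set 2. The Serpinf1 probe sets were thus higher at both older ages in either set, whether or not the difference passed.

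The late step minus the early step was -3.00 ± 0.65 (SE) for 1416168_at (limma adjusted p = 0.137) and -1.74 ± 0.67 for 1453724_a_at (limma adjusted p = 0.371). With arrays weighted by their quality the first was -2.89 and passed (limma adjusted p = 0.0445). Whether the difference between the late and early steps of Serpinf1 1416168_at passed therefore depended on the array weights.

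Serpinh1, known as HSP47, is a collagen chaperone of the endoplasmic reticulum and inhibits no protease. It did not pass in any comparison. Probe set 1456733_x_at (Entrez gene 12406) read 10.28, 9.13, 10.06, 10.24 and 9.62 in young arrays, 9.98, 9.81, 10.56 and 9.55 in middle-aged arrays, and 9.79, 10.04, 9.77, 9.51 and 10.28 in aged arrays. Every group overlapped the others, with means of 9.87 ± 0.49 (SD, n = 5), 9.98 ± 0.43 (n = 4) and 9.88 ± 0.29 (n = 5). The aged minus young difference was 0.012 ± 0.24 (SE), with a 95% interval of -0.50 to 0.53 (limma adjusted p = 0.990). For middle-aged minus young it was 0.11 (interval -0.44 to 0.66, limma adjusted p = 0.900). Both intervals end well below the Serpinf1 differences.

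The other Serpinh1 probe set, 1450843_a_at, had means of 7.57 ± 0.36 (SD, n = 5), 7.54 ± 0.43 (n = 4) and 7.68 ± 0.31 (n = 5) and correlated with the first at r = 0.61. Its single arrays lay between 7.03 (young 2) and 8.13 (middle-aged 3). Aged minus young was 0.12 ± 0.22 (SE, interval -0.35 to 0.59, limma adjusted p = 0.862), and middle-aged minus young was -0.024 (limma adjusted p = 0.979).

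The clade B serpins Serpinb6a and Serpinb9 lack a secretion signal and act inside cells. Serpinb6a protects cells from proteases such as cathepsin G. Its probe set, 1450138_a_at (Entrez gene 20719), read 10.86, 11.16, 11.07, 10.69 and 11.05 in young arrays. Middle-aged arrays read 11.55, 11.06, 11.03 and 11.45, and aged arrays read 11.33, 11.13, 11.34, 11.64 and 11.63. Of the 5 aged arrays, 4 stood above all young arrays, and aged 2 fell inside the young range. Means were 10.97 ± 0.19 (SD, n = 5), 11.27 ± 0.27 (n = 4) and 11.42 ± 0.22 (n = 5). The aged minus young difference of 0.45 ± 0.16 (SE, interval 0.12 to 0.78) had an unadjusted p of 0.0114 and did not pass after adjustment over all probe sets (limma adjusted p = 0.158). It passed in the fit with the level of the hybridization controls as a covariate (0.55, limma adjusted p = 0.0226). The middle-aged minus young difference was 0.31 ± 0.17 (limma adjusted p = 0.426).

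Serpinb9 inhibits granzyme B and shields cytotoxic lymphocytes and other cells from it. Probe set 1422601_at (Entrez gene 20723) was dim, with 5.53, 4.63, 4.54, 5.58 and 5.00 in young arrays. It read 5.63, 5.18, 5.80 and 4.73 in middle-aged arrays and 5.34, 5.01, 4.87, 4.50 and 5.05 in aged arrays. The groups overlapped throughout, with means of 5.06 ± 0.49 (SD, n = 5), 5.33 ± 0.48 (n = 4) and 4.96 ± 0.30 (n = 5). Aged minus young was -0.10 ± 0.25 (SE, interval -0.63 to 0.43, limma adjusted p = 0.900), and middle-aged minus young was 0.28 (interval -0.29 to 0.84, limma adjusted p = 0.708). A second probe set, 1439790_at, exceeded the 40th percentile on 2 arrays (young 5 and middle-aged 1), was not tested, and had means of 3.66, 3.48 and 3.50. The probe sets of Serpinb9 did not track each other (r = 0.0064).

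Serpini1, or neuroserpin, is a secreted inhibitor of tissue plasminogen activator and is best known from neurons. Probe set 1416702_at (Entrez gene 20713) read 6.64, 7.51, 7.03, 6.83 and 6.85 in young arrays, 8.16, 6.63, 6.43 and 6.99 in middle-aged arrays, and 5.33, 6.55, 7.03, 7.35 and 7.39 in aged arrays. Both the highest array, middle-aged 1, and the lowest, aged 1, were at later ages, and the SD grew from 0.33 (n = 5) in young to 0.77 (n = 4) in middle-aged and 0.85 (n = 5) in aged arrays around means of 6.97, 7.05 and 6.73. The aged minus young difference was -0.24 ± 0.38 (SE, interval -1.05 to 0.57, limma adjusted p = 0.830). Probe set 1448443_at tracked it (r = 0.78). It had means of 7.07 ± 0.36 (SD, n = 5), 6.87 ± 0.61 (n = 4) and 6.71 ± 0.79 (n = 5), with the extremes again on middle-aged 1 (7.76) and aged 1 (5.69). Its aged minus young difference was -0.36 ± 0.34 (SE, interval -1.10 to 0.37, limma adjusted p = 0.689). The third probe set, 1443756_at, lay below the 40th percentile on every array, at means of 2.69, 2.65 and 2.84, and was not tested.

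**Figure D2:**
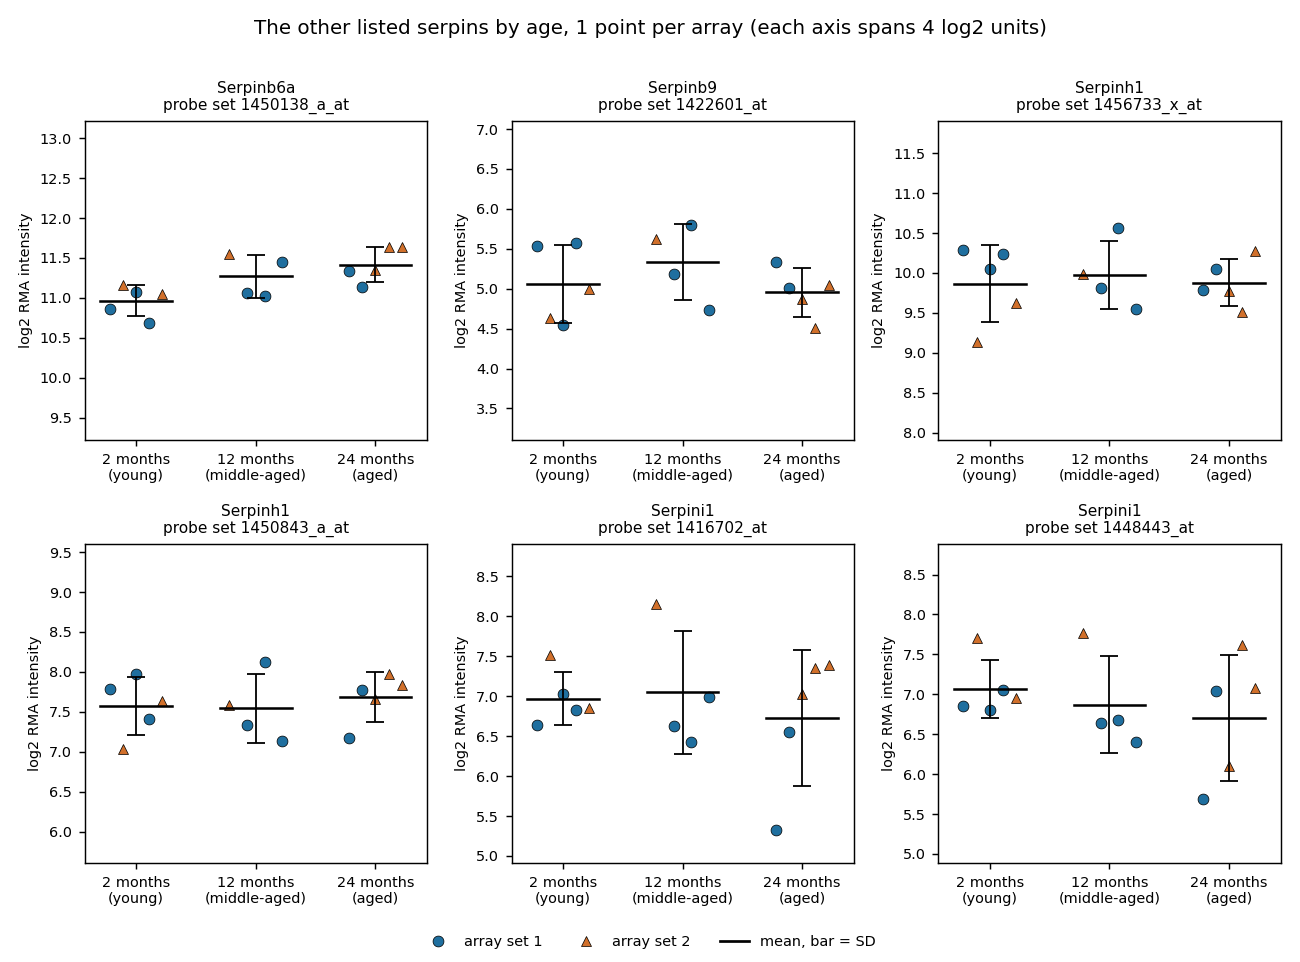
Log2 RMA intensity (vertical axis, each spanning 4 units) of the Serpinb6a, Serpinb9, Serpinh1 and Serpini1 probe sets that passed the dim-signal filter, at 2, 12 and 24 months, 1 point per array, with circles for array set 1, triangles for array set 2, lines for means and bars for SD. The ages overlap in every panel, and Serpini1 spreads most widely at 12 and 24 months.

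In aged against young, 3 of the 9 serpin probe sets tested were higher and 0 lower, the 3 being Serpina3n and the pair of Serpinf1 probe sets, where 3.1% of all 23887 probe sets were called (2.21% higher). In middle-aged against young, 2 of 8 (Serpina3n left aside) were called, both Serpinf1, against 1.86% of all probe sets (1.18% higher). The 3 calls come from 2 genes, so the number of genes that changed is small. The listed serpins, Serpina3n among them, were chosen with earlier results of these data known. The shares over all probe sets are therefore no test of whether 3 of 9 is many. In aged against middle-aged, limma called 0 of 8, with 0 at an unadjusted p under 0.05, and 0% of all probe sets (2087 had an unadjusted p under 0.05). The late minus early step also called 0 of 8 (2 unadjusted, both Serpinf1) and 0% of all. The median difference over the members tested was 0.12 in aged against young and 0.19 in middle-aged against young (8 probe sets), beside medians of -0.05 and -0.04 over all probe sets. Within array set 2, limma called 0 of the 9 in aged against young.

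**Figure D3:**
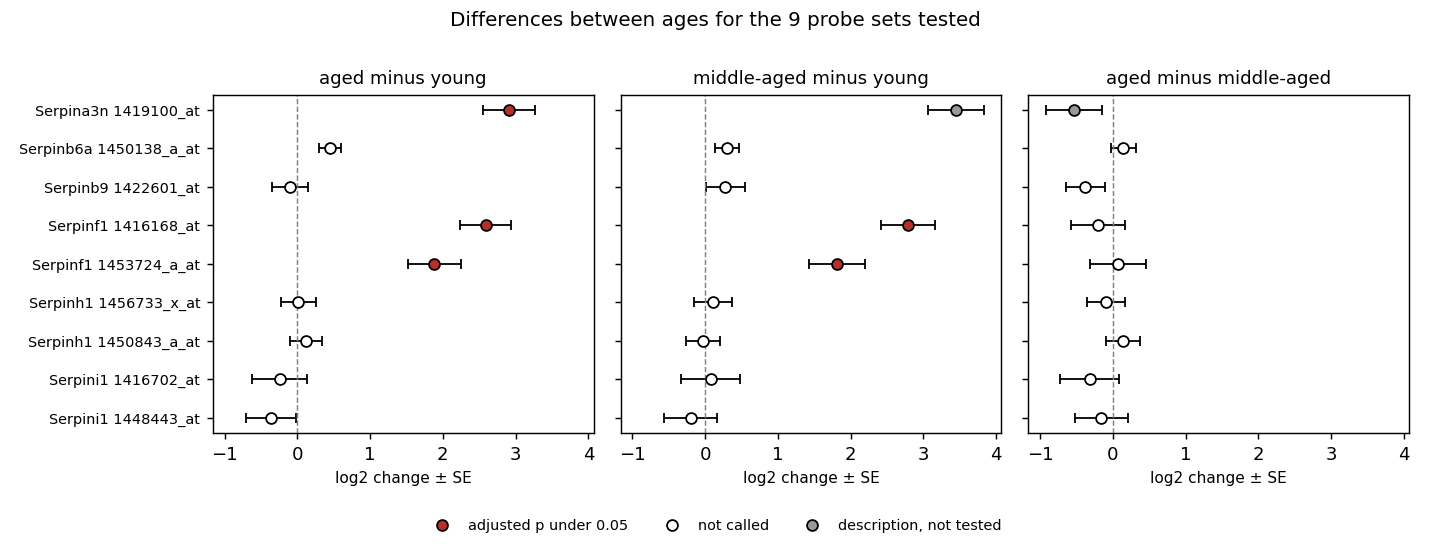
Difference in mean log2 intensity (horizontal axis, log2 units, bars are moderated SE) for the 9 serpin probe sets tested, in aged minus young, middle-aged minus young and aged minus middle-aged. Filled red points passed an adjusted p under 0.05, open points did not, and grey points of Serpina3n are descriptions without a test; the points that passed are Serpina3n in the first panel and Serpinf1 in the first and second panels.

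Another 35 serpin genes had 46 probe sets, of which 11 (of 11 genes) passed the dim-signal filter. None was called by limma in aged against young (0 at unadjusted p under 0.05, smallest adjusted p 0.352) or in middle-aged against young (1 at unadjusted p under 0.05, smallest adjusted p 0.143). Their differences ran from -0.31 to 0.30 and from -0.50 to 0.48. Only Serping1, the C1 inhibitor of the complement and contact systems, came near, and it is named here after its values were seen. Its mean log2 value was 11.95 in young, 12.43 in middle-aged and 12.25 in aged cells, with a middle-aged minus young difference of 0.48 ± 0.15 (SE, limma adjusted p = 0.143). In the fit with arrays weighted by quality, 1 of the 11 rose in middle-aged against young.

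Of the 24 listed proteases that inhibitory serpins can act on, 19 passed the filter. In aged against young 3 rose and 0 fell, with a median difference of -0.01, and in middle-aged against young 2 rose and 0 fell, with a median of 0.00. Each gene of this and the following lists is given by its brightest kept probe set. Over all 13579 genes taken that way, 2.76% rose and 0.987% fell in aged cells, and 1.47% rose and 0.854% fell in middle-aged cells. The lists were not tested against these shares or against each other. Ctsk, the collagen-degrading cathepsin K, went from a mean log2 value of 6.43 in young to 8.57 in middle-aged and 8.73 in aged cells. It rose 4.94-fold in aged (2.30 ± 0.38 log2, limma adjusted p = 0.00314) and 4.40-fold in middle-aged cells (2.14 ± 0.40, limma adjusted p = 0.0131). The middle-aged rise of Ctsk did not pass without middle-aged 3 (1.80, adjusted p = 0.0574).

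Of the plasminogen activators, Plau passed in aged cells and Plat in middle-aged cells, and no gene passed between those ages. Plau, the urokinase-type activator, rose in aged cells by 1.50 ± 0.33 log2 (2.83-fold, limma adjusted p = 0.0201). That call was lost without young 1, 3 or 5 or aged 1 (adjusted p between 0.0504 and 0.0622, differences from 1.38 to 1.51), in the fit that held the 3' minus 5' measure (1.34, adjusted p = 0.112) and within array set 1 (1.39, adjusted p = 0.149). Plat, the tissue-type activator that Serpini1 inhibits, rose in middle-aged cells by 0.88 ± 0.17 (1.84-fold, limma adjusted p = 0.0173). It did not pass without middle-aged 3 (0.85, adjusted p = 0.0709) or middle-aged 4 (0.86, adjusted p = 0.0634), and its aged difference was 0.52 ± 0.16 (limma adjusted p = 0.114). Htra1, a secreted serine protease, rose in aged cells by 1.06 ± 0.24 (limma adjusted p = 0.0207). Without young 3 the difference was 0.96 (adjusted p = 0.0671), without aged 2 it was 1.00 (0.0517), and without aged 3 it was 0.94 (0.0520), and within array set 1 it was 1.06 (0.140). With young 3 left out, or within array set 1, 1 protease of the list rose in aged cells, and without middle-aged 3 none rose in middle-aged cells.

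In the wider list of plasminogen and coagulation genes, 4 of 20 measured members rose in aged cells and 2 in middle-aged cells. None fell, and the medians were 0.32 and 0.24. The shares of all genes that rose were 2.76% in aged and 1.47% in middle-aged cells. Besides Plau and Plat, Procr, the endothelial protein C receptor, rose in aged cells by 1.66 ± 0.32 (limma adjusted p = 0.0102). Thbd, thrombomodulin, rose by 1.41 ± 0.36 (limma adjusted p = 0.0478), and Anxa2, which binds plasminogen at the cell surface, by 0.54 ± 0.13 (limma adjusted p = 0.0392). Anxa2 also rose in middle-aged cells by 0.59 ± 0.14 (limma adjusted p = 0.0457). These calls were narrow. Leaving out 1 array lost the aged call of Thbd in 8 of 14 fits (adjusted p up to 0.135), that of Anxa2 in 11 (up to 0.0981) and the middle-aged call of Anxa2 in 10 (up to 0.145). Procr passed in all 14, but not once the 3' minus 5' measure was in the model (1.56, adjusted p = 0.0651), and neither did Thbd (1.04, adjusted p = 0.243). With that covariate 1 member, Anxa2, rose in aged cells (0.67, adjusted p = 0.0459) and 1, Tfpi, an inhibitor of tissue factor, fell (-1.10, adjusted p = 0.0337; named after its values were seen). Anxa2 did not pass within array set 1 in aged (0.57, adjusted p = 0.141) or middle-aged cells (0.57, adjusted p = 0.0897). With only the aged and young arrays fitted, 2 members rose. Over these fits the number that rose ran from 1 (without young 1 or young 3) to 4 in aged cells and from 0 (without middle-aged 3 or middle-aged 4) to 2 in middle-aged cells.

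Genes of the acute phase and of IL-6 and STAT3 signalling, the setting in which Serpina3n is best known, had 27 measured members. Of these, 11 rose and 1 fell in aged cells (median 0.53), where 2.76% of all genes rose, and 9 rose and 0 fell in middle-aged cells (median 0.58), where 1.47% of all genes rose. Il6 itself went from 6.64 in young to 9.50 in middle-aged and 9.93 in aged cells, a rise of 3.29 ± 0.53 (9.80-fold, limma adjusted p = 0.00280) in aged cells. Timp1, an inhibitor of metalloproteinases, went from 8.20 to 10.17 and 10.71, and rose 5.67-fold in aged (2.50 ± 0.20, limma adjusted p = 2.34e-05) and 3.92-fold in middle-aged cells (1.97 ± 0.22, limma adjusted p = 0.000575). Lbp, the lipopolysaccharide-binding protein, rose 3.09-fold in aged (limma adjusted p = 0.00445) and 3.43-fold in middle-aged cells (limma adjusted p = 0.00661). Osmr, the oncostatin M receptor, rose in middle-aged cells by 1.11 ± 0.18 (limma adjusted p = 0.00556), and Steap4, a metalloreductase, in aged cells by 1.32 ± 0.24 (limma adjusted p = 0.00604). The member that fell was Cp, ceruloplasmin (-0.79 ± 0.19, limma adjusted p = 0.0365), which is named here after its values were seen.

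The middle-aged rise of Il6, 2.86 ± 0.56 (limma adjusted p = 0.0172), did not pass without young 1 (2.67, adjusted p = 0.0523), young 3 (2.55, adjusted p = 0.0507) or middle-aged 3 (2.61, adjusted p = 0.0773). The count of members that rose in aged cells was 6 without young 1 or young 4, 7 without young 3 or aged 2, 6 with the 3' minus 5' covariate, and 6 with only the aged and young arrays fitted. The fall of Cp passed neither with that covariate nor within array set 1. In middle-aged cells it was 4 without young 1 or young 3 and 3 without middle-aged 3. In aged cells Timp1, Il6, Lbp and Steap4 passed in all 14 fits that left out 1 array, though Lbp did not within array set 1 (1.58, adjusted p = 0.0600).

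Of the genes induced by glucocorticoids, the other known inducer of Serpina3n, 2 of 22 rose in aged cells (median -0.05; 2.76% over all genes) and 2 of 22 in middle-aged cells (median 0.13; 1.47% over all genes). Cebpd, a transcription factor that the acute-phase list also holds, rose in aged (0.53 ± 0.12, limma adjusted p = 0.0275) and middle-aged cells (0.65 ± 0.13, limma adjusted p = 0.0191). Fkbp5, a classical receptor target, rose in middle-aged cells by 0.99 ± 0.23 (limma adjusted p = 0.0378), and its aged difference was 0.58 ± 0.21 (limma adjusted p = 0.191). Mt1, a metallothionein, rose in aged cells by 0.62 ± 0.16 (limma adjusted p = 0.0440). Each of these calls was lost when some single arrays were left out, and the count that rose ran from 0 to 3 at both ages over those fits. In aged cells it was 0 without young 1, 3 or 4 or aged 2 or 4, and in middle-aged cells 0 without middle-aged 3 or 4. With the 3' minus 5' covariate 0 rose in aged cells (Cebpd 0.47, adjusted p = 0.126, and Mt1 0.43, adjusted p = 0.245) and 1, Cebpd, in middle-aged cells (Fkbp5 0.91, adjusted p = 0.0539). With only the aged and young arrays fitted, 0 rose in aged cells.

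Of the collagen-folding and secretion genes, with which Serpinh1 works, 2 of 27 rose and 0 fell at each age, with medians of -0.08 in aged and -0.04 in middle-aged cells. Those that rose act on collagen after it has left the cell. Lox, which cross-links collagen, rose by 2.17 ± 0.29 (4.50-fold, limma adjusted p = 0.000817) in aged and 2.27 ± 0.31 (4.82-fold, limma adjusted p = 0.00167) in middle-aged cells. Pcolce, which speeds removal of the procollagen C-propeptide, rose by 1.68 ± 0.37 (limma adjusted p = 0.0191) and 1.79 ± 0.39 (limma adjusted p = 0.0292). The aged call of Pcolce was lost without young 3 (1.61, adjusted p = 0.0590), and the middle-aged call without any young array or middle-aged 3 or 4 (differences 1.44 to 1.85, adjusted p up to 0.110). Of the 17 heat shock chaperones measured, 1 rose at each age, beside 2.76% of all genes in aged and 1.47% in middle-aged cells. It was Hspb8, a small heat shock protein, which rose by 1.37 ± 0.20 in aged (limma adjusted p = 0.00151) and 0.95 ± 0.21 in middle-aged cells (limma adjusted p = 0.0349). The middle-aged call of Hspb8 was lost in 7 of 14 fits that left out 1 array (adjusted p up to 0.0996). Within array set 1 Hspb8 passed at neither age (0.94 in aged, adjusted p = 0.0573, and 0.77 in middle-aged cells, adjusted p = 0.0670).

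Interferon response genes, a list that includes antigen-presentation and guanylate-binding proteins, rose in 8 of 22 cases in aged cells (median 0.80; 2.76% over all genes) and in 2 of 22 in middle-aged cells (median 0.44; 1.47% over all genes). Gbp2, a guanylate-binding GTPase, rose by 1.49 ± 0.28 in aged (limma adjusted p = 0.00814) and 1.81 ± 0.30 in middle-aged cells (limma adjusted p = 0.00585). Ifitm1 rose by 1.35 ± 0.25 (limma adjusted p = 0.00694), Psmb8, an immunoproteasome subunit, by 1.06 ± 0.20 (limma adjusted p = 0.00796) and Oasl2 by 1.02 ± 0.20 (limma adjusted p = 0.0108) in aged cells. Ifitm3 rose in middle-aged cells by 0.78 ± 0.18 (limma adjusted p = 0.0368), a call lost in 8 of 14 fits that left out 1 array. Over those fits the aged count ran from 4 (without young 1, young 3 or aged 3) to 9. With the 3' minus 5' covariate it was 4, and the aged call of Gbp2 was lost (1.29, adjusted p = 0.0682), as was the middle-aged call of Ifitm3 (0.64, adjusted p = 0.0545). Within array set 1 it was 5, and Psmb8 did not pass (1.03, adjusted p = 0.127).

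Markers of tendon cells were also higher at both older ages, as Serpina3n and Serpinf1 were. Of 12 tenocyte markers, 10 rose and 0 fell at each age, where 2.76% (aged) and 1.47% (middle-aged) of all genes rose. The medians were 2.42 in aged and 2.53 in middle-aged cells. Leaving out 1 array gave 9 to 11 that rose in aged and 8 to 10 in middle-aged cells. Cilp rose 12.9-fold in aged cells (limma adjusted p = 0.00032), Comp 14.7-fold (limma adjusted p = 0.000504), Thbs4 9.47-fold (limma adjusted p = 0.000353) and Fmod 3.63-fold (limma adjusted p = 0.000605), all of them matrix proteins of tendon and cartilage. Their mean over the list was 5.94 to 7.21 on young, 8.44 to 10.09 on middle-aged and 8.58 to 9.69 on aged arrays, so that no older array overlapped a young one. The means of the acute phase and interferon response lists did not overlap between young and older arrays either. The highest array was middle-aged 3 (10.09), as for Serpina3n and Serpinf1. That array was also the highest for the means of other serpins (5.70), target proteases (7.35) and glucocorticoid response genes (10.54). The same held for collagen-folding genes (9.23) and lymphoid markers (4.87). The lowest older array was middle-aged 2 (8.44) for the tenocyte markers and aged 5 for Serpina3n. Scx, the defining transcription factor of the list, was dim, at 3.57 in young, 4.19 in middle-aged and 4.55 in aged cells, and did not pass (limma adjusted p = 0.0949 in aged and 0.379 in middle-aged cells). The part of these genes in the serpin differences was not tested.

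**Figure D4:**
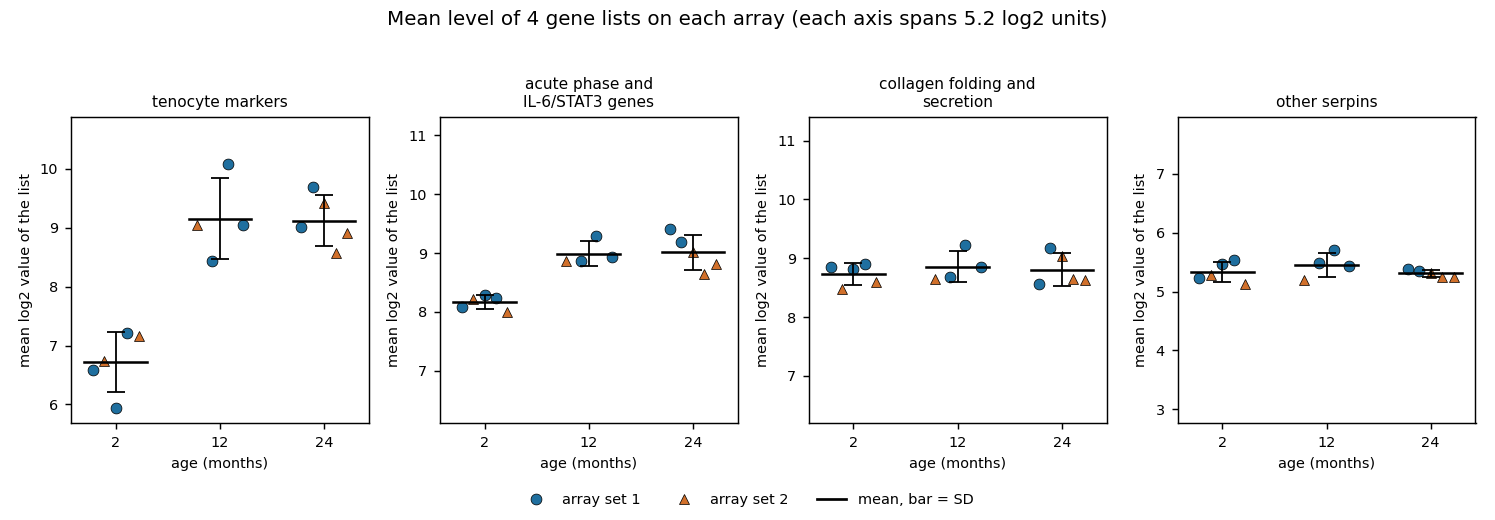
Mean log2 intensity (vertical axis, each spanning 5.2 units) over the kept members of 4 gene lists on each array at 2, 12 and 24 months: tenocyte markers, acute phase and IL-6/STAT3 genes, collagen folding and secretion, and other serpins. Circles are array set 1, triangles array set 2, lines group means and bars SD; the first pair of lists sit higher at both older ages, and the second pair overlap at all ages.

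The defining genes of the sorted cells were present: each of the 16 satellite cell markers exceeded the 40th percentile on every array. Their list mean was 9.48 to 9.80 on young, 9.05 to 9.51 on middle-aged and 8.94 to 9.46 on aged arrays, and 3 of 16 fell in aged cells (Fgfr4 by 1.24 ± 0.27, Calcr by 1.42 ± 0.33 and Chrdl2 by 0.81 ± 0.20 on the log2 scale; limma adjusted p = 0.0190, 0.0278 and 0.0326). Among all genes, 0.987% fell in aged and 0.854% in middle-aged cells. Without young 3 or young 4 none of the 3 satellite cell markers passed, and with the 3' minus 5' covariate 1, Calcr, did. Not every marker was lower. Cd34 had means of 8.58 in young, 8.79 in middle-aged and 8.92 in aged cells, and the mean of Sdc4 was also higher at both older ages. In middle-aged cells 0 of the 16 satellite cell markers fell, and within array set 1 there 3 did (Fgfr4, Itga7 and Calcr). Of the myofibre genes, 12 of 16 rose and 1 fell in aged cells (list mean 6.44 to 7.51 on young and 8.06 to 9.13 on aged arrays), where 2.76% of all genes rose. In middle-aged cells 0 rose, where 1.47% of all genes rose, and 1, Actn3, fell. Within array set 1, 3 of the myofibre genes rose in aged cells, and within array set 2, 7 did. Tnnt3 rose 6.61-fold (limma adjusted p = 0.000504) and Myl1 7.61-fold (limma adjusted p = 0.00179) in aged cells.

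Fibro-adipogenic and fibroblast markers rose in 4 of 14 cases in aged and 2 of 14 in middle-aged cells, and 0 fell (medians 0.44 and 0.53). Over all genes 2.76% rose in aged and 1.47% in middle-aged cells. Members of the list did not all move the same way. Col3a1, a collagen gene, had means of 12.44 in young, 11.46 in middle-aged and 11.56 in aged cells, and the mean of Dpt was also lower at both older ages. Dcn, decorin, rose by 1.27 ± 0.18 in aged (limma adjusted p = 0.00111) and 1.43 ± 0.19 in middle-aged cells (limma adjusted p = 0.00149), and Dpp4 by 2.38 ± 0.33 (limma adjusted p = 0.00111) and 1.89 ± 0.35 (limma adjusted p = 0.0131). With the 3' minus 5' covariate, 2 rose in aged cells, Dcn and Dpp4. The list mean was 7.97 to 8.24 on young, 8.33 to 8.95 on middle-aged and 7.87 to 9.35 on aged arrays. Pericyte and smooth muscle markers rose in 1 of 11 cases at each age, and 0 fell. The gene was Pdgfrb, which rose 6.81-fold in aged (limma adjusted p = 0.000337) and 6.66-fold in middle-aged cells (limma adjusted p = 0.000892). This list also held members that moved in opposite directions. Acta2 had means of 10.72 in young, 9.83 in middle-aged and 10.49 in aged cells, and Tagln and Notch3 were also lower at both older ages. Rgs5 had means of 5.80, 6.98 and 7.94. The part of these genes in the serpin differences was not tested.

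Blood cell markers were uneven. Of 17 macrophage and myeloid markers, 7 exceeded the 40th percentile of every array and 6 stayed below it on all 14 (Ptprc, which encodes CD45, Itgam, C1qb, C1qc, Cd163 and Cx3cr1). Among the former, Lyz1 had means of 9.25 in young, 10.06 in middle-aged and 10.89 in aged cells, and Lyz2 had 6.66, 7.31 and 8.27; both encode lysozymes. Of the 10 measured, 2 rose in aged cells (Cd14, 2.52-fold, limma adjusted p = 0.00846, and Lyz1, 3.11-fold, limma adjusted p = 0.0374), where 2.76% of all genes rose. In middle-aged cells 1, Cd14, rose (2.46-fold, limma adjusted p = 0.0226), where 1.47% of all genes rose. With the 3' minus 5' covariate or within array set 1, Cd14 was the 1 that rose in aged cells. The list mean was 5.28 to 5.51 on young, 5.47 to 5.94 on middle-aged and 5.56 to 6.11 on aged arrays, so that aged and young did not overlap. The median difference of the list was small, at 0.14 in aged and 0.20 in middle-aged against young. Not every measured member rose: Tyrobp had means of 4.66 in young, 4.53 in middle-aged and 4.40 in aged cells.

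Of 13 lymphoid markers, 5 exceeded the 40th percentile of every array (Cd3e, Cd3d, Cd4, Cd8a and Cd79a) and 6 stayed below it on all 14 (Cd3g, Cd2, Cd79b, Ms4a1, Nkg7 and Ncr1). The list mean was 4.52 to 4.72 on young, 4.55 to 4.87 on middle-aged and 4.33 to 4.69 on aged arrays. Of 9 neutrophil markers, 3 lay above on all arrays and 1, Cxcr2, below on all. S100a8, a calcium-binding protein abundant in neutrophils, had means of 7.43, 7.39 and 8.73 in young, middle-aged and aged cells. Other members went the other way, such as Ngp with 6.42, 5.38 and 5.52. The median difference of the neutrophil list was -0.01 in aged and -0.20 in middle-aged against young. The neutrophil list mean ran from 4.09 (young 1) to 6.43 (young 4) within the young group alone, and was 4.57 to 5.38 on middle-aged and 5.17 to 5.62 on aged arrays. Limma called 0 of the 6 lymphoid and 0 of the 8 neutrophil markers measured in either comparison with young.

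Of 12 endothelial markers, 7 exceeded the 40th percentile of every array and 1, Pecam1, stayed below it on all 14. The list mean of the 9 measured stood apart on aged 3 (6.83) and aged 2 (6.09). It was 4.90 to 5.17 on the other aged, 5.14 to 5.62 on young and 4.99 to 5.32 on middle-aged arrays. Aged 2 and aged 3 were also the highest aged arrays for both Serpinf1 probe sets. This was not particular to the endothelial list. They were the highest aged arrays for tenocyte markers (9.69 and 9.43), fibro-adipogenic and fibroblast markers (9.01 and 9.35) and collagen-folding genes (9.18 and 9.04) as well. When each array was left out in turn, the aged minus young difference of Serpinf1 1416168_at ran from 2.34 to 2.77 (limma adjusted p up to 0.00414). For 1453724_a_at it ran from 1.63 to 2.07 (limma adjusted p up to 0.0288). Each of these fits kept aged 2 or aged 3, so they do not show the difference without both. Limma called 0 of the 9 endothelial markers in either comparison. In some other fits 1 of them fell in aged cells (quantile normalization, the array set as a term, and 1 probe set per gene among them). Of 9 Schwann and glial markers measured, 1, the sodium channel gene Scn7a, rose in aged cells (2.45-fold, limma adjusted p = 0.0465), where 2.76% of all genes rose. In middle-aged cells 0 rose, where 1.47% of all genes rose. The count in aged cells was 0 with the 3' minus 5' covariate. Within array set 2, where limma called 12 of 23887 probe sets in aged and 0 in middle-aged against young, no gene of any of these lists passed at either age except the 7 myofibre genes. The part of these markers in the serpin differences was not tested.

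The genes most like Serpina3n were ranked by Pearson correlation over the 14 arrays among 13578 other genes, each by its brightest probe set. The 8 highest were Prelp (r = 0.95, Spearman rho = 0.89), Fbln1 (0.95, 0.93), Neat1 (0.95, 0.92), Mfge8 (0.95, 0.86), Chst11 (0.94, 0.90), H2-D1 (0.93, 0.95), Hacd2 (0.93, 0.89) and Lgals3 (0.93, 0.90). Prelp and Fbln1 are matrix proteins, Mfge8 is a secreted bridging protein for apoptotic cells, and Lgals3 is a galectin. Prelp went from a mean of 8.54 in young to 11.39 in middle-aged and 11.01 in aged cells, and Fbln1 from 5.61 to 8.89 and 8.66. Since the arrays share the step between 2 and 12 months, these correlations mostly repeat that step, and they are given without a p.

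After each age group's mean was removed, the list became Cyth2 (r = 0.94), Cd109 (0.93), Srp68 (0.91), Hacd2 (0.90), Rasa3 (0.90), Cd2bp2 (0.90), Yipf3 (0.90) and Gpd2 (0.90). Hacd2 was the only gene on both lists. Serpina3n and Serpinf1 correlated at 0.92 (1416168_at) and 0.87 (1453724_a_at) over the 14 arrays, and at 0.48 and 0.51 after the age means were removed. Serpinb6a correlated with Serpina3n at 0.46, but at -0.52 once age was removed: aged 5, the lowest aged array for Serpina3n, was among the 2 highest for Serpinb6a. Over the other members the correlation with age removed ran from -0.54 for Serpini1 1416702_at to 0.24 for Serpinh1 1450843_a_at. All these points share arrays and array sets.

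**Figure D5:**
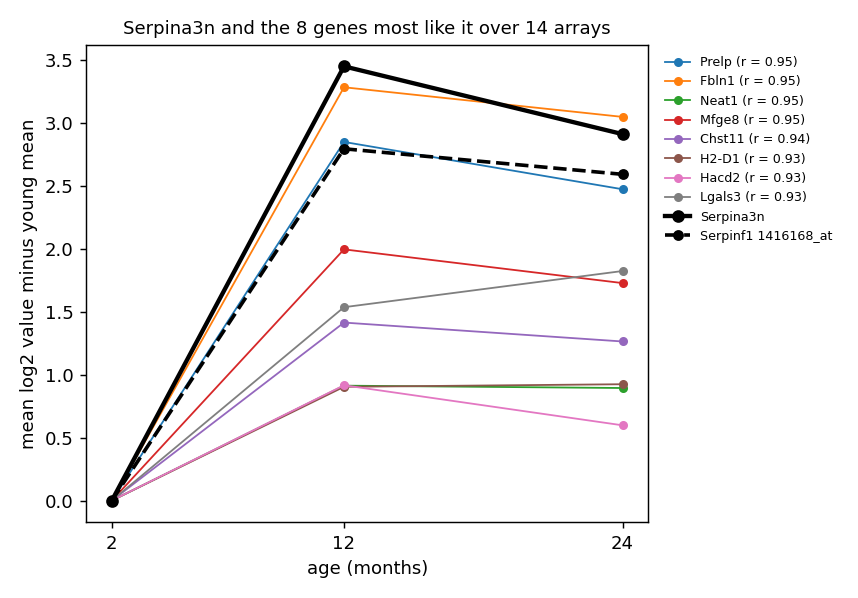
Mean log2 intensity minus the young mean (vertical axis, log2 units) against age in months for Serpina3n (thick line), Serpinf1 1416168_at (dashed) and the 8 genes with the highest Pearson correlation with Serpina3n over 14 arrays. Serpina3n rises by 3.45 at 12 months and stands at 2.91 at 24 months; Prelp, Fbln1 and Serpinf1 follow a similar course, Neat1, H2-D1 and Hacd2 a shallower one.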

How the data were processed

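Affymetrix arrays were hybridised with RNA of sorted muscle precursor cells. The authors summarised probes with RMA, per the submitters' processing notes (its version is not given in the sources used here), and deposited intensity values on a linear scale (array medians 19.0 to 21.2). Their log2 was taken here without further scaling. Of 45101 probe sets, 64 were controls, 932 were annotated to several genes, and 34945 to 1 gene in a platform annotation dated 2016. Of these, 34741 matched RefSeq by Entrez identifier (0 symbols changed). The dim-signal filter (40th percentile, log2 3.79 to 3.96, on at least 4 arrays) left 23887 probe sets of 13579 genes.

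All 14 arrays entered 1 model with age group as the only factor (limma 3.58.1, R 4.3.3, lmFit and eBayes), with two-sided tests, Benjamini-Hochberg adjustment over the 23887 probe sets, and calls at an adjusted p under 0.05. Arrays have no counting depth, so their number limits the precision. In simulated data with 200 changed probe sets, the aged against young test on 23887 probe sets recovered 60% of 2-fold and 95.8% of 4-fold changes, and 5.86% of its calls were false. Replicate numbers in the labels were not treated as pairs in this model. Of 13 same-numbered pairs, 5 correlated above 0.1 (range -0.48 to 0.26). Values of same-numbered pairs alone cannot show whether the numbers pair the arrays. The serpins, the gene lists and the tests were chosen with earlier results of these data known. Every listed serpin probe set is named. Of the other serpins every called gene is named, and of each other list up to 4 called members with the smallest p per comparison. The 8 genes most like Serpina3n are named with and without the age means. Alternatives changed the filter, normalization, weights, covariates, groups fitted, block and arrays used; the split into array sets was chosen after seeing the data.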

Additional observations from a re-analysis of the deposited data

Results flagged for a closer look

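Of 33 groups of arrays examined (each listed serpin probe set at each age), 2 held an array far from the others of its group, by Dixon's test at the 95% level, which chance alone marks in about 1 in 20 groups. Serpini1 1448443_at read 7.70 on young 2, where the other young arrays read 6.80 to 7.05. The gap was 0.726 of the group's range, above the critical value of 0.71 for 5 arrays. Serpini1 1443756_at, which was dim on all arrays and untested, read 2.73 on aged 4, where the other aged arrays read 2.85 to 2.90 (0.711 of the range).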

How the results depend on the processing

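The number of serpin probe sets called in aged against young was 3. It was 4 with the hybridization control covariate (Serpinb6a passed), 2 with 1 probe set per gene, 2 within array set 1 and 0 within array set 2, and leaving out 1 array gave 3 to 3. In middle-aged against young it was 2, and 1 with 1 probe set per gene (which leaves 1 Serpinf1 probe set), 1 within array set 1, 0 within array set 2, and 1 to 2 when 1 array was left out. In the late minus early step it was 0 and became 1 with array weights. In aged against middle-aged it was 0 in every fit run. The labels do not say whether arrays with the same replicate number were paired. With the number as a replicate block, 1 serpin probe set was called in middle-aged against young, because 1453724_a_at of Serpinf1 no longer passed (1.72, limma adjusted p = 0.0688). Calls over all probe sets then went from 444 to 167 (from 740 to 560 in aged against young). All-probe-set calls in aged against young were 1285 with the hybridization control covariate, 1352 with the array set as a term and 12 within array set 2, and 471 without young 3. In middle-aged against young they were 1461 with array weights, 941 with the 3' minus 5' covariate, 889 with the array set term, 772 with only the groups compared, 1079 and 0 within array sets 1 and 2, and 149 to 512 when 1 array was left out. In the late minus early step, array weights gave 136. Among the listed serpins, 399 values from other settings kept their direction and side of the threshold and 26 changed sign, none of them called. With quantile normalization these were Serpinh1 1456733_x_at in aged against young (-0.045), 1450843_a_at in middle-aged against young (0.051) and in the late minus early step (-0.022), Serpinf1 1453724_a_at in aged against middle-aged (-0.025) and Serpini1 1448443_at in the late minus early step (-0.087). With array weights they were Serpinh1 1456733_x_at (-0.055 in aged and -0.057 in middle-aged against young, 0.0025 in aged against middle-aged and 0.060 in the late minus early step) and Serpini1 1448443_at in aged against middle-aged (0.019). With the hybridization control covariate they were Serpinh1 1456733_x_at (-0.099 in aged and -0.0038 in middle-aged against young), 1450843_a_at (0.011, middle-aged against young), Serpini1 1416702_at (0.027, aged against young) and 1448443_at (0.025 in middle-aged against young and -0.19 in the late minus early step). With the 3' minus 5' covariate they were Serpinb9 1422601_at (0.40) and Serpinh1 1450843_a_at (-0.0039) in aged against young, Serpini1 1416702_at in middle-aged against young (-0.37) and Serpinh1 1456733_x_at in aged against middle-aged (0.051). The array set as a term gave 0.020 for Serpinh1 1456733_x_at in aged against middle-aged and -0.29 for Serpini1 1448443_at in the late minus early step. The replicate block gave 0.0032 for Serpinh1 1450843_a_at in middle-aged against young and -0.025 for Serpini1 1448443_at in the late minus early step. Within array sets 1 and 2, Serpinf1 1416168_at in aged against middle-aged was 0.031 and 0.026. Leaving out 1 array turned the sign of 38 further uncalled values of the listed serpins, whose values over those fits ran as follows. In aged against young they ran from -0.23 to 0.031 for Serpinb9 1422601_at, from -0.17 to 0.12 for Serpinh1 1456733_x_at, from -0.017 to 0.25 for 1450843_a_at and from -0.41 to 0.11 for Serpini1 1416702_at. In middle-aged against young they ran from -0.086 to 0.25 for Serpinh1 1456733_x_at, from -0.22 to 0.11 for 1450843_a_at and from -0.29 to 0.29 for Serpini1 1416702_at. In aged against middle-aged they ran from -0.46 to 0.15 for Serpinf1 1416168_at, from -0.19 to 0.46 for 1453724_a_at, from -0.24 to 0.097 for Serpinh1 1456733_x_at, from -0.53 to 0.048 for Serpini1 1416702_at and from -0.39 to 0.14 for 1448443_at. In the late minus early step they ran from -0.32 to 0.028 for Serpinb6a, from -0.49 to 0.18 for Serpinh1 1456733_x_at, from -0.11 to 0.55 for 1450843_a_at, from -0.81 to 0.34 for Serpini1 1416702_at and from -0.28 to 0.63 for 1448443_at. The cause of these changes was not tested.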
